A study of Drosophila melanogaster with 2 samples.

Results

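The gene tara (taranis, FBgn0040071) was examined as a target of Corto, a chromodomain protein of Drosophila melanogaster that belongs to the Enhancers of Trithorax and Polycomb. The gene occupies 3R 16225651 to 16260329 on the plus strand of dm6. Its members here are all listed summits within this span and 5 kb on either side. The 44.7 kb window held 13 of the 2644 summits of the optimal peak set, 41 of the 30000 entries of the pooled list, 37 entries of the replicate 1 list and 41 of the replicate 2 list. The pooled list is labelled as peaks and background, so its weaker entries need not be Corto-GFP peaks. The gene was selected on these same lists, so the number, place, spacing and strength of its summits are given as a description, with no test.

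The 2 libraries were biological replicates of 1 group and came from whole embryos of both sexes, collected at 0 to 24 h, of a transgenic line that stably expressed Corto with GFP at its C terminus. An antibody to GFP was used for chromatin immunoprecipitation, and chromatin had been sonicated to 200 to 800 bp. No second condition was available, and no untagged embryos were analysed here. The deposited lists hold 1 signal value for each peak, on a scale that the sources used here do not give, and no read counts, so the depth is unknown. Embryos were processed whole, and a weak peak in all cells cannot be told apart from a strong one in few cells.

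Polycomb group proteins keep homeotic genes silent and Trithorax group proteins keep them active, and Enhancers of Trithorax and Polycomb such as Corto act with both groups. The gene tara is classed in the Trithorax group and was recovered as a genetic modifier of polyhomeotic, a Polycomb group gene. It encodes nuclear proteins with a SERTA motif, related to the mammalian TRIP-Br (SERTAD) proteins, which work with cell cycle and E2F regulators. In flies tara promotes sleep together with Cyclin A, affects neural proliferation and protects cell identity in the regenerating wing disc.

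The annotation gives tara 2 transcripts. The first exon of tara-RA starts at 16225651 and carries 8 codons, and that of tara-RB starts 17165 bp further on, at 16242816, and carries 4 codons. Both are spliced to a shared last exon (16256778 to 16260329) with 2724 bp of coding sequence, which gives proteins of 916 and 912 residues. The 13 optimal summits are called T1 to T13 below, from upstream to downstream, and offsets are counted from a transcription start site (TSS), negative upstream.

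Sequences are shown for 7 summits, as 75 bp on either side of the summit. T2 and T7 carried the strongest signals, T8 was the promoter summit, T3 and T5 held the letters CAGGTA of Zelda, T10 differed most in rank between the replicates, and T13 held a match to the AP-1 letters TGACTCA. These Zelda and AP-1 matches are on the minus strand, so the lines below show their reverse complements. Capitals mark every match, on either strand, to the 16 short motifs that were searched.

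T2, chr3R:16222403-16222553, plus strand: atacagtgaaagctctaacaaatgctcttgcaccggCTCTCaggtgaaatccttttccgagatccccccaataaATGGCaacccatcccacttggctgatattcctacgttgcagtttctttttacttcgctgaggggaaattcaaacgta

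T3, chr3R:16224478-16224628, plus strand: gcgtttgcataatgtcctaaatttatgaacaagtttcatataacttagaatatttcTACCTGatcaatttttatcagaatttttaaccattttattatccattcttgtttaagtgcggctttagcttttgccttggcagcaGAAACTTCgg

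T5, chr3R:16234767-16234917, plus strand: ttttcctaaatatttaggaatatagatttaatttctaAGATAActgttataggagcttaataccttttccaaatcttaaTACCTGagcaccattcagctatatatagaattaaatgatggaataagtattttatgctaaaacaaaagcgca

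T7, chr3R:16236856-16237006, plus strand: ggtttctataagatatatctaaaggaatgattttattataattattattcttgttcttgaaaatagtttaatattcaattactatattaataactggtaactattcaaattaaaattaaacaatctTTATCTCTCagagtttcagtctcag

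T8, chr3R:16242336-16242486, plus strand: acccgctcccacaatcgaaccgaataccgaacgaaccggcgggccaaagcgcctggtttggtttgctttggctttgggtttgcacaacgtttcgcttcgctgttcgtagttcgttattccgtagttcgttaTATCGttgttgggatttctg

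T10, chr3R:16250398-16250548, plus strand: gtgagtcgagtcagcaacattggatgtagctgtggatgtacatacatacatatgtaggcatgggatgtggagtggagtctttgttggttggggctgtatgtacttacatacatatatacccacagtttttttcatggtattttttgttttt

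T13, chr3R:16253666-16253816, plus strand: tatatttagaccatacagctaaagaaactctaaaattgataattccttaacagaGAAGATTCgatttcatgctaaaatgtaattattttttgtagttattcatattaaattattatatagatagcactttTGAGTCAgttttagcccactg

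The 250 bp before each start site of tara are shown for comparison, with the same marking. The start of tara-RA had no optimal summit nearby, and that of tara-RB had T8 further upstream.

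tara-RA, chr3R:16225401-16225650, plus strand: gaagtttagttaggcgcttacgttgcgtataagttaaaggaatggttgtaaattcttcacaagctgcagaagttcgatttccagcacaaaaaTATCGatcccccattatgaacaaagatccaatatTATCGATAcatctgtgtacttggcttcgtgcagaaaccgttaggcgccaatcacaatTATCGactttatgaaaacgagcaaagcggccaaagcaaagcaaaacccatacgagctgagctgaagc

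tara-RB, chr3R:16242566-16242815, plus strand: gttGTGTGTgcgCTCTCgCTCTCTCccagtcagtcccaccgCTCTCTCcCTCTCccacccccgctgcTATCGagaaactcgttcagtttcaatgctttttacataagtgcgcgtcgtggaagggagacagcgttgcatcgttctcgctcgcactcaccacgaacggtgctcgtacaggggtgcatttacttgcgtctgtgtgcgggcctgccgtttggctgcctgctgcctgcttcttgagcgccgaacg

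Corto-GFP summits lay upstream of tara and throughout its long intron, and none lay in an exon or after the gene. The upstream 5 kb held T1, T2 and T3. The intron between the first exons of tara-RA and tara-RB (16.4 kb) held T4 to T8, and the intron from there to the last exon (13.4 kb) held T9 to T13. These intron stretches made up 66.8% of the window and held 10 of the 13 summits. The 3 exons (789, 514 and 3552 bp) and the downstream 5 kb held 0 summits. With 13 summits of 1 gene chosen by them, these counts of 0 do not show that Corto-GFP was absent there. The pooled list had 4 entries in the upstream 5 kb, 36 in the intron and 1 in the first exon of tara-RB, and its last entry lay at +31041 bp from the tara-RA start, ahead of the last exon at +31127 bp. The replicate lists differed in their entries in exons and past the gene. Replicate 1 had 1 entry in the last exon, outside the coding sequence (16260219, signal 26.7, rank 7054), and 2 in the downstream 5 kb. Replicate 2 had 2 in the first exon of tara-RB and 0 in the last exon or downstream. No list had a summit in tara coding sequence.

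**Figure D1:**
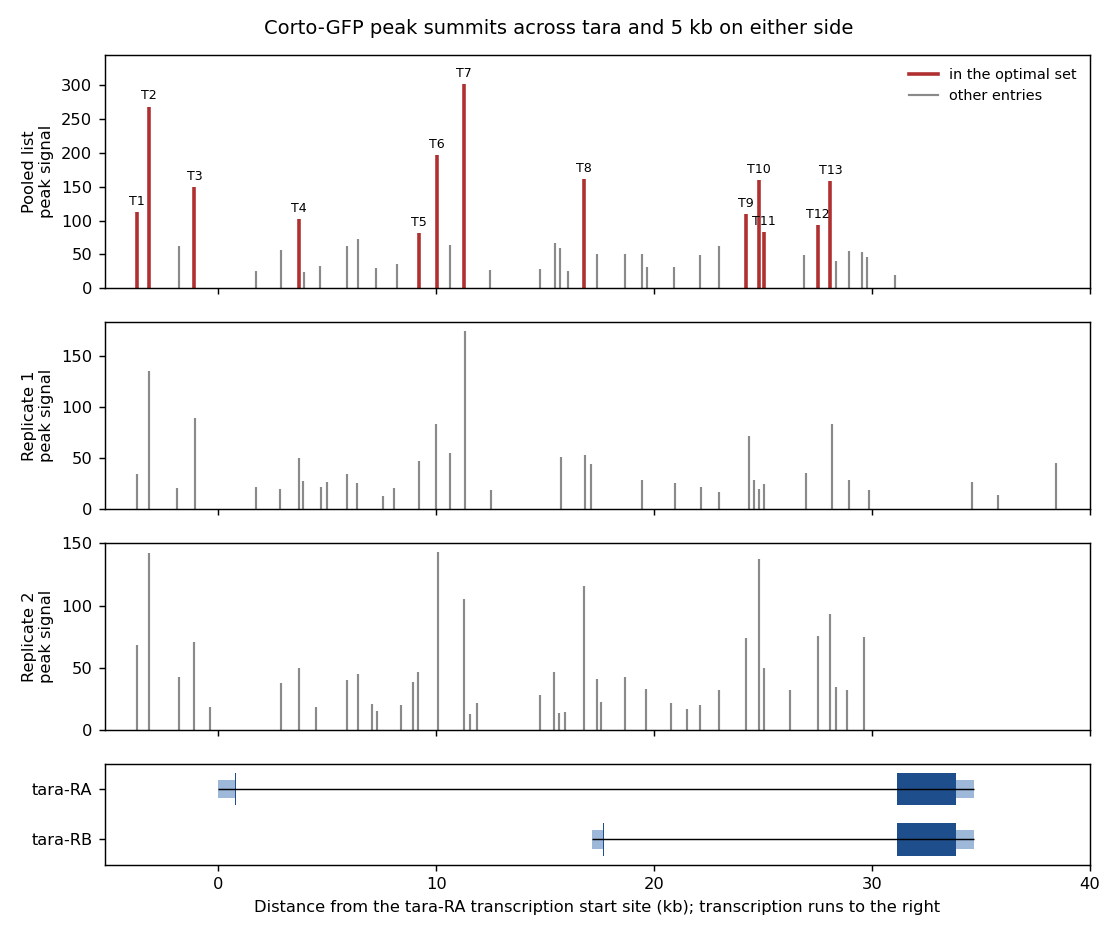
Deposited signal of every entry in the window, against the distance in kb from the tara-RA start, for the pooled list and each replicate. Exons are boxes (dark for coding) and introns are lines. The 13 red optimal summits run from T1 at −3736 bp to T13 at +28090 bp and stand outside the exons, and the pooled list has no entry over the last exon or beyond it.

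Upstream of tara, T2 was the strongest summit. Its peak (16222420 to 16222579) had its summit at 16222478, 3173 bp before the tara-RA start, with a pooled signal of 268 at rank 154 of the optimal set. It had a signal of 135.5 in replicate 1 and 142 in replicate 2, where it ranked 162 and 143, so both replicates placed it alike. T1, at 16221915, lay 563 bp further from the gene and had a pooled signal of 113, with 34.1 in replicate 1 and 68.0 in replicate 2. T3, at 16224553, was the nearest to the tara-RA start (1098 bp upstream), with a pooled signal of 150.04 and replicate signals of 88.8 and 70.5. Between T2 and T3 the annotation has a non-coding RNA gene, lncRNA:CR45643, on the same strand, whose start lay 917 bp from T2. No optimal summit lay within 500 bp of that start, while each of the other 3 lists had 1 entry there. Those entries lay near the far end of this short gene (16223854), at 16223855 in the pooled list, 16223750 in replicate 1 and 16223860 in replicate 2.

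The tara start sites differed in their summits. No optimal summit and no pooled or replicate 1 entry lay within 500 bp of the tara-RA start, and the pooled entries on either side of it were T3 and one at +1730 bp, 2828 bp apart. Replicate 2 had 1 weak entry there, at −405 bp, with a signal of 17.98 and rank 15612. At the tara-RB start, T8 lay 405 bp upstream (16242411), with a pooled signal of 161 at rank 597. Its signal was 53.3 in replicate 1, at −343 bp and rank 1713, and 116 in replicate 2, at −405 bp and rank 268. T8 is what made tara one of the 1381 protein-coding genes with a promoter summit, a share of 9.90%, under a window of 500 bp, and with a window of 250 bp tara had 0 such summits. Without replicate 2, the strongest 2644 entries of replicate 1 gave the tara-RB start 2 summits, the entry at −343 bp and one at −44 bp (signal 44.3, rank 2526). The pooled list also had an entry at +201 bp of tara-RB, in the 5′ UTR of its first exon, with a signal of 50.4 and rank 6449.

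The strongest summit of the locus, T7, lay inside the intron at 16236931 (peak 16236844 to 16237077), 11280 bp after the tara-RA start and 5885 bp before that of tara-RB. Its pooled signal of 301 ranked 114 in the optimal set. Replicate 1 gave it a signal of 175 at rank 72, its best rank at the locus, and replicate 2 gave 105 at rank 352. T6, 1242 bp before T7 at 16235689, had a pooled signal of 197 at rank 362. Here replicate 2 was the higher one, with a signal of 143 at rank 141, against 83.2 at rank 635 in replicate 1. T5, 847 bp before T6 at 16234842, was the weakest of the 13, with a pooled signal of 81.9 and replicate signals of 47.5 and 46.7. Among the optimal summits T4 stood alone at 16229369, with a pooled signal of 102 and replicate signals of 49.5 and 49.4. Weaker pooled entries lay near T4, the closest 213 bp away with a signal of 23.8. T2 and T7 were the only peaks at tara narrower than 400 bp (2 of 13), and 13.1% of all optimal peaks were.

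The intron after the first exon of tara-RB carried 5 summits, 7034 to 10925 bp after the tara-RB start. T9 (16249850), T10 (16250473) and T11 (16250672) lay 623 and 199 bp apart, and the peaks of T10 and T11 overlapped. T9 had a pooled signal of 110 and nearly equal replicate signals of 71.4 and 74.3, although the replicate 1 summit was 171 bp away. T10 had a pooled signal of 160. Its replicate signals were far apart, at 19.6 (rank 12378) in replicate 1 and 137 (rank 165) in replicate 2. T11 likewise had 24.6 in replicate 1 and 49.9 in replicate 2, with a pooled signal of 83.0. T12, at 16253146, had a signal of 75.1 at rank 845 in replicate 2 and no entry of replicate 1 within 200 bp, the nearest being 513 bp away at rank 4243. T13, at 16253741, was seen alike in both, with signals of 83.1 and 93.3 at ranks 640 and 469 and a pooled signal of 159.

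**Figure D2:**
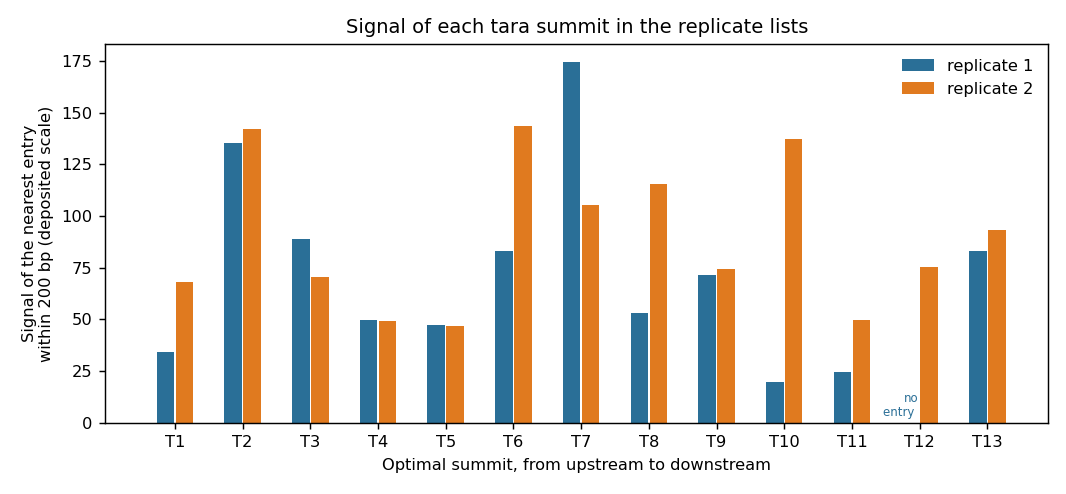
Signal (deposited scale) of the replicate entry nearest to each optimal summit within 200 bp, for replicate 1 (blue) and replicate 2 (orange), with summits in order from upstream to downstream. T2, T4, T5, T9 and T13 have bars of like height, T7 and T3 are higher in replicate 1, T10 is at 19.6 against 137, and T12 has no replicate 1 entry.

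Of the 13 summits, 12 had an entry of both replicates within 200 bp, where 96.5% of all optimal summits had one. In 9 of the 13 both entries were among the strongest 2644 of their own list, and the share over all optimal summits was 53.9%. These values are given without a test, since the optimal set was derived from the same replicates. Replicate ranks at tara differed by a median factor of 2.76, and by one of 1.92 over all 2551 optimal summits with both entries. Replicate 1 had the better rank at 4 of the 12 tara summits (T3, T4, T5 and T7) and at 49.2% of all optimal summits. Only T10 differed by a factor over 10 (75.02), a limit set after the values were seen and passed by 4.19% of all optimal summits with both entries. The pooled signal was 0.755 to 1.11 times the sum of the replicate signals at tara, with a median of 0.959. Over all optimal summits with both entries the median was 0.997 and the range 0.212 to 2.69.

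**Figure D3:**
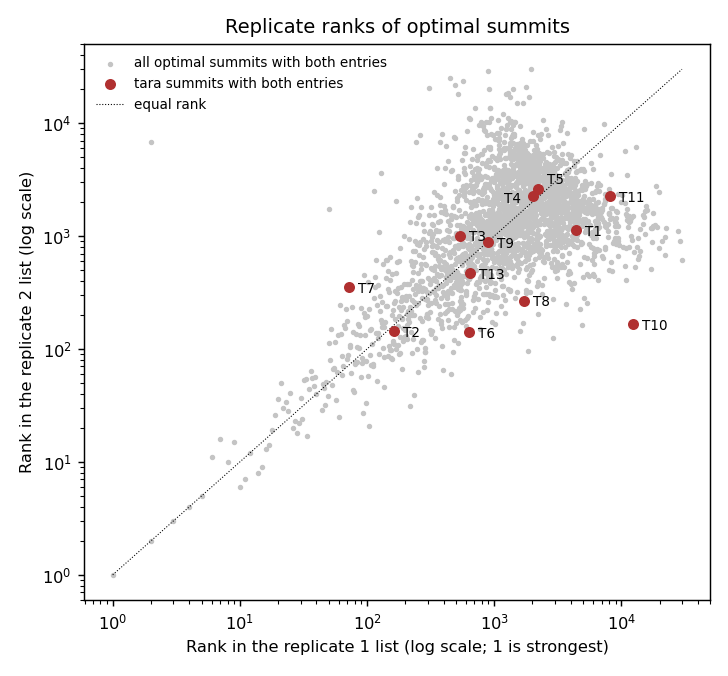
Rank of each optimal summit in the replicate 1 list (x axis) and the replicate 2 list (y axis), both on log scales with 1 as the strongest, for the 12 tara summits with both entries (red) and all 2551 such summits (grey). T2 and T9 lie close to the line of equal rank, and T10, at ranks 12378 and 165, lies far below it.

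Each replicate had entries at tara that the other lacked. Of all 37 replicate 1 entries in the window, 22 had a replicate 2 entry within 200 bp, and 42.3% of the whole replicate 1 list did. Of all 41 replicate 2 entries in the window, 24 had one of replicate 1, and 42.6% of the whole replicate 2 list did. Both counts include the entries of the 12 optimal summits seen in both replicates, so they do not describe the weaker entries alone. The strongest replicate 2 entry at tara outside the optimal set lay at +29612 bp, with a signal of 74.7 at rank 866, and its nearest replicate 1 entry was 260 bp away at rank 13280. In replicate 1 the strongest such entry lay at +10632 bp, between T6 and T7, with a signal of 55.2 at rank 1579. Replicate 1 also had an entry at 16264109 (signal 44.8, rank 2476), past the end of tara and within 500 bp of the start sites of the neighbouring genes bor and asun. Neither replicate 2 nor the pooled list had an entry within 500 bp of those starts. The weakest tara summit inside the optimal set was T5 with a pooled signal of 81.9 (rank 2599), and the strongest pooled entry at tara outside it had 73.04 (rank 3298, at +6400 bp).

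Summits at tara followed each other closely, as 13 summits in a window of 44.7 kb must. The gene was chosen by these summits, so the difference in spacing from the arms was set by that choice. The 12 distances between neighbours ran from 199 bp (T10 to T11) to 7439 bp (T8 to T9), with a median of 1658.5 bp, and the median over all 2638 neighbouring optimal summits of the arms was 14255 bp. Up to 1 kb separated 5 of the 12 pairs at tara (41.7%) and 9.48% of all pairs. The 5 close pairs were T1 with T2, T5 with T6, T9 with T10, T10 with T11, and T12 with T13. The 199 bp between T10 and T11 was also the shortest distance between any neighbouring optimal summits on the arms, a value that other pairs shared. The widest distance covered the first exon of tara-RB. The next optimal summits outside the window were 13656 bp before T1, less than the median distance over all, and 26981 bp after T13, the last within gish, a casein kinase gene, at a signal of 453. The median distance at tara was 3268 bp among the strongest 1322 optimal peaks, and 2930 bp among the strongest entries of replicate 1, without replicate 2. With summits within 500 bp merged, tara had 12 summits and a median distance of 2075 bp.

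**Figure D4:**
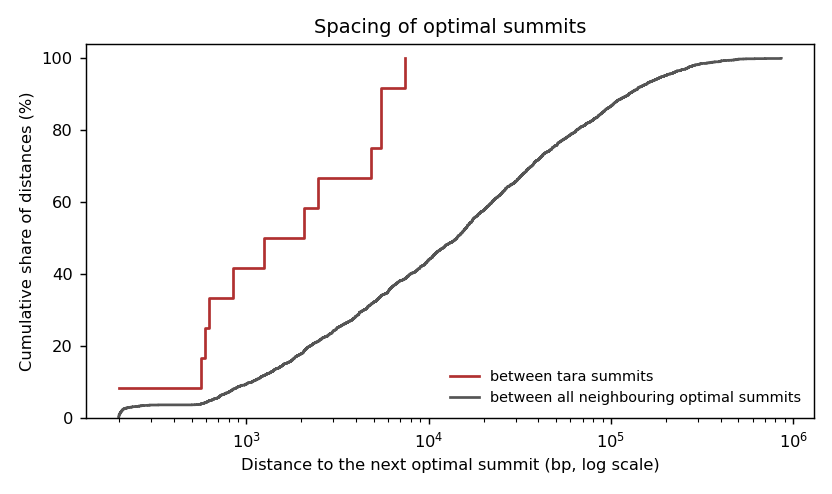
Cumulative share (%) of the distances between neighbouring optimal summits, on a log axis in bp, for the 12 distances at tara (red) and all 2638 on the chromosome arms (grey). The tara curve ends at 7439 bp, where the other has not yet reached its median of 14255 bp.

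Few genes had as many optimal summits as tara. Of 13945 protein-coding genes, 4 genes with tara included (0.0287%) had 13 or more in their span plus 5 kb, and 9965 had 0. The others, named after their counts were seen, were sbb, a corepressor gene, with 16, Eip75B, an ecdysone-induced nuclear receptor gene, with 14, and Tet, a dioxygenase gene, with 13. Their windows were longer (89.1, 124 and 103 kb) than that of tara. With 2.91 summits per 10 kb, tara was above these 3 genes (1.80, 1.13 and 1.26 per 10 kb), and the chromosome arms averaged 0.197 per 10 kb. Among 773 other genes with windows of 29.8 to 67.02 kb, the median was 0 summits and the highest count 10. By summits per kb, 58 genes were above tara, all with shorter windows (10.2 to 27.0 kb) that held 3 to 10 summits. Windows of neighbouring genes can hold the same summits. Without replicate 1, 0 genes had more summits than the 15 of tara, and without replicate 2, 1 gene had more than its 13.

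**Figure D5:**
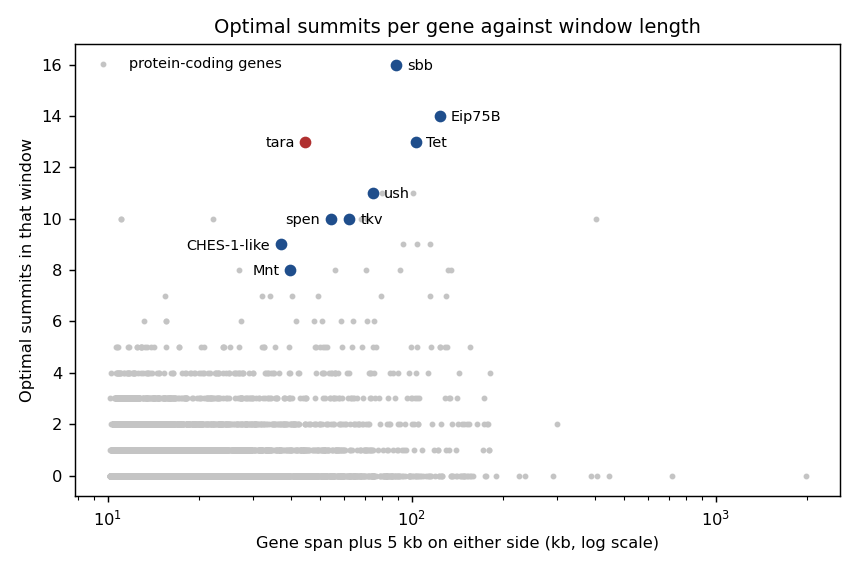
Optimal summits in each protein-coding gene's span plus 5 kb on either side, against the length of that window in kb on a log axis. The red point is tara with 13 summits in 44.7 kb, below sbb (16) and Eip75B (14) and level with Tet (13), and the blue points name these and the 5 genes most like tara.

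The pooled list, which holds background as well as peaks, also had many entries at tara. Its 41 entries came to 9.18 per 10 kb, and the arms had 2.24 per 10 kb. More entries were found at 54 genes, and genes with windows of like length had a median of 10 and at most 52. Of the 41 entries, 13 (31.7%) were in the optimal set, and 8.81% of the whole pooled list was. The gene was chosen by those 13, so this share and part of the density follow from that choice.

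Genes most like tara were ranked by the summed differences in log2 number of optimal summits, log2 window length and share of summits at a promoter, over 93 genes with 5 or more summits. The nearest was spen, a gene for an RNA-binding corepressor, with 10 summits in 54.4 kb and 20.0% of them at a promoter (difference 0.785). Mnt, which encodes a partner of Max, had 8 in 39.9 kb (0.913), and CHES-1-like, a forkhead gene, had 9 in 37.05 kb (0.946). The Dpp receptor gene tkv had 10 in 62.4 kb (0.983) and ush, a GATA cofactor gene, had 11 in 74.3 kb (0.990). At tara 7.69% of the summits were at a promoter. The median pooled signal of the optimal summits was 150.04 at tara, 128 at spen, 108 at Mnt, 149.5 at CHES-1-like, 117 at tkv and 99.9 at ush, and 113 over the whole optimal set.

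Genes that genetic work or related proteins link with tara varied in their summits. Of 15 such genes, 13 had an optimal summit in their span plus 5 kb and 7 had one within 500 bp of a TSS, with a median of 1 summit and at most 10. Over all 13945 protein-coding genes, 28.5% had a summit in that window, 9.90% had one within 500 bp of a TSS, and the median was 0. The list was written with earlier results of these data known, so nothing is read from this difference. Of the Trithorax group members, osa had 7 summits and kis 5, each with 1 at a promoter (signals 91.6 and 98.9). The Brahma ATPase gene brm had 1, at its promoter (247), trx had 4 and mor and ash1 1 each, none of these at a promoter. The Polycomb gene ph-p had 10 summits, 2 of them at its promoters, and Pc had 1 that was not. Among the cell cycle genes E2f1 had 6 with 1 at a promoter (123), Dp had 1 at its promoter (168), CycA and Cdk1 had 1 each elsewhere, and Rca1, whose product guards Cyclin A from degradation, had 0. The JNK phosphatase gene puc had 8 with 1 at its promoter (221), and en, which tara restrains in regenerating wing discs, had 0.

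No searched motif was found at all 13 tara summits. Within 100 bp of the summit, the GAGA letters (GAGAG) were found at 5 of 13 (T2, T3, T4, T7 and T12), at 30.4% of all optimal summits (95% Wilson interval 28.7 to 32.2, counting error only) and at 7 of 26 windows centred 1000 bp from the tara summits (24.6% of such windows for all optimal summits). With 50 bp on either side, 1 of 13 summits held them. A narrower window can only lower such a count, and the share of all optimal summits at that width is not given here. Some of the 26 windows overlapped the 201 bp around another tara summit, as near T5 and T6, so they are not free of summit sequence. The Pleiohomeotic core GCCAT was at 4 of 13 (T2, T9, T12 and T13), and at 25.2% of all optimal summits. It was at 9 of the 26 tara windows 1000 bp away (34.6%), above the 30.8% at the tara summits, and at 32.8% of such windows for all. In T2 its centre lay 1 bp from the summit. The Zelda letters CAGGTA were at T3 and T5, with the centre of the match at −16 bp in T3 and +7 bp in T5. The Zelda letters were at 4.12% of all optimal summits, at 1 of the 26 tara windows 1000 bp away and at 4.39% of such windows for all. At T13 the AP-1 match was 58 bp from the summit, and 2.00% of all optimal summits had one. It was also at 1 of the 26 tara windows 1000 bp away and at 1.97% of such windows for all. The TATA letters TATAAA were at 1 of 13 tara summits (T6) and at 35.3% of all. They were at 6 of the 26 tara windows 1000 bp away and at 21.5% of such windows for all. The BEAF-32 letters CGATA were at T1 and T8 and at 26.1% of all optimal summits. In windows 1000 bp away they were at 6 of 26 at tara and 22.2% for all. The DRE core TATCGATA was at 0 of 13 and at 2.42% of all, and in such windows at 1 of 26 and 0.605%. The longer GAGAGAG was at T4 (8.28% of all), which also held 3 matches to GTGTGT (15.4% of all). In windows 1000 bp away GAGAGAG was at 1 of 26 at tara and 4.44% for all, and GTGTGT at 4 of 26 and 15.4%. The heat shock unit GAANNTTC was at T3 and T13 (5.71% of all), and the GATA letters AGATAA were at T5 and T7 (13.4% of all). In windows 1000 bp away each was at 1 of 26 at tara. For all such windows the shares were 6.18% for the heat shock unit and 12.6% for the GATA letters. Of the remaining 5 motifs, none was found at a tara summit, where Motif 1 (GGTCACAC) was at 1.06% of all optimal summits, CRE (TGACGTCA) at 0.378%, the E-box (CACGTG) at 2.00%, the Sp1 box (GGGCGG) at 3.21% and the Grainyhead motif (AACNGGTT) at 3.74%. T10 and T11 held no match to any of the 16 motifs.

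The summits also differed in base composition. In the 201 bp around the summit, GC content ran from 25.9% at T1, 26.9% at T7 and 29.9% at T13 to 49.3% at T8 and 52.2% at T11. The median was 39.8% at tara and 36.1% over all optimal summits, and in windows 1000 bp from the tara summits it was 10.2 percentage points above that of the summits. Some of those windows overlapped the 201 bp around another tara summit. The 2 strongest summits were unlike, with 26.9% in T7 and 45.8% in T2.

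The sequences before the start sites differed as well. The 250 bp before tara-RA, where no optimal summit lay, held the DRE core TATCGATA starting 124 bp upstream, as 6.91% of the 19607 protein-coding start sites did, and 0 GAGA matches. The 250 bp before tara-RB held 6 matches to GAGAG, some of them overlapping, that started from −238 to −201 bp, between T8 and the start site, and 0 matches to the DRE core. At least 1 GAGAG was present before 29.1% of start sites. These matches describe the letters printed above and do not show that a factor was bound.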

How the data were processed

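ChIP-seq of 2 biological replicates of 1 group was used, as 4 narrowPeak lists on dm6. Text notes deposited beside the lists say that the replicate and pooled lists derive from alignments and a control, and the optimal set from those 3 lists by the irreproducible discovery rate (IDR). The pooled list is labelled as peaks and background used as input for the IDR, and each replicate list likewise holds 30000 entries. Entries low in these lists need not be peaks. No source used here gives the caller, the aligner or the threshold. The peak signal is the authors' deposited value and served to describe and rank peaks. The dm3 lists were not used.

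A summit was the peak start plus the deposited offset, 1-based. Gene models were those of Ensembl release 115 (BDGP6.54). Bases were read from the NCBI copy of the same assembly, where 99.8% of annotated start codons read ATG. Replicate entries were the nearest within 200 bp. Motifs were searched on both strands in 201 bp windows with Python 3.11.15, and GAGAGAG contains GAGAG as TATCGATA contains CGATA. Counting was tested on simulated data. Genes named were tara, genes overlapping its window, 15 linked genes written from general knowledge, the 5 most like it and exceptions stated in the text. The members, motifs and lists were chosen with earlier results of these data known. No test was made, since the gene was chosen by this readout and 1 group has no contrast.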

Additional observations from a re-analysis of the deposited data

How the results depend on the processing

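Alternatives were other flanks, the strongest 1322 optimal peaks, merged summits, other distances and windows, and each replicate alone. A value was taken as moved past 1.5 times. Among the strongest 1322 optimal peaks tara had 8 summits with a median spacing of 3268 bp, and 1 gene had more. Without each replicate in turn, tara had 13 to 15 summits, 1 to 2 of them at a promoter, with a median spacing of 1454.5 to 2930 bp, and 0 to 1 genes had more summits. A promoter window of 250 bp gave 0 promoter summits, summits per kb put 58 genes above tara, and motif windows of 50 bp left 1 summit with GAGAG. The share of all optimal summits with GAGAG at 50 bp is not given, so that fall is not read as particular to tara. Of 61 alternatives, the 16 motifs counted singly, 42 stayed within 1.5 times and 19 moved. The 42 include the DRE core, Motif 1, CRE, E-box, Sp1 box and Grainyhead motif, which stayed at 0 summits. For these motifs a narrower window could not change the count. One of the 61, the strongest replicate entry in place of the nearest, was chosen after seeing the data. It left 9 summits among the strongest of both replicates. The causes were not tested. With 2 replicates and no read counts, no interval can be set on any peak's signal.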
